A study of Mus musculus with 4 samples.

Results

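The contractile genes of smooth muscle and myoepithelium were followed in mouse mammary tumours: Acta2, Actg2, Myh11, Cnn1, Tagln, Mylk, Oxtr, Myl9, Lmod1 and Smtn. The set was defined by gene symbol, with earlier results of these data known, and all 10 were found among the 20555 genes of the table. The study sequenced RNA of whole mammary tumours in 4 libraries, 2 Control-PyMT and 2 MYC-PyMT. Control-PyMT has PyMT as its labelled genotype, the polyoma middle T oncogene that causes mammary tumours in mice. MYC-PyMT is labelled S100a8-creRosa26-LSL-MYCPyMT, so these tumours arose with the same oncogene and, in addition, with MYC at the Rosa26 locus, silent until Cre cuts out a stop sequence. Cre is driven here by S100a8, which is known best as a neutrophil gene. No treatment is labelled. The sources used here do not give ages, nor whether controls carried Cre or the MYC allele. The title of the series names the effect of MYC on PyMT tumours as its subject. The labels do not say that libraries of 1 group stem from separate mice, so the p-values measure only how these libraries vary, and that variation may be technical.

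Myoepithelial cells form the basal layer around mammary ducts and alveoli. They are epithelial, but they build the same contractile machine as vascular smooth muscle. Oxytocin, released in suckling, binds its receptor on these cells and raises calcium through phospholipase C. Calmodulin then activates myosin light chain kinase, the kinase phosphorylates the regulatory light chain, and smooth muscle myosin pulls on alpha and gamma actin filaments, which expels milk. Calponin, transgelin, leiomodin and smoothelin bind or build those actin filaments. Many of these genes are switched on by serum response factor (SRF) with its partners of the myocardin family. The same genes are made by the smooth muscle of vessel walls, and some of them by pericytes and activated fibroblasts.

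The libraries held from 31783846 to 34190913 reads. Values are scaled counts, that is, reads divided by a size factor of the library, so that 1 read is worth 0.849 to 1.10. Of 16725 genes tested with limma, 24.6% were lower and 23.3% higher in MYC-PyMT at a Benjamini-Hochberg adjusted p under 0.05, 47.9% in either direction, so a call by itself is common here. The median log2 change of all tested genes was -0.02. RNA integrity numbers ran from 3.3 to 9.6, but the labels do not tie them to libraries. The luminal keratin gene Krt8 stood between 22210.5 and 28747 scaled counts in all 4 libraries, and it marks the luminal layer of mammary epithelium. It does not stand for the luminal markers as a group. Of 12 such markers 6 were lower (50%, beside 24.6% of all tested genes), none was higher and 6 were not called.

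9 of the 10 contractile genes fell in MYC-PyMT, and none rose, against the 24.6% of all tested genes that were lower. The falls ran from 6.74-fold for Tagln to 78.0-fold for Cnn1, as ratios of group means. In these 9 genes the MYC-PyMT libraries lay below the Control-PyMT libraries without overlap, which was the case for 38.7% of all tested genes, while 37% lay above without overlap. All 9 had a log2 change under -2, beside 8.33% of all tested genes that were called lower with such a change. Smtn was the exception, with overlapping groups. The median log2 change of the 10 genes was -3.67, beside -0.02 for all tested genes. Summed over the 10 genes, scaled counts reached 56957 and 62620.4 in the controls, against 5888 and 7373 in the MYC-PyMT tumours. Of everything counted in a library, this made up 0.189% and 0.224% in the controls, against 0.0171% and 0.0211% in MYC-PyMT. In bulk tissue, fewer cells of a type and less RNA per cell cannot be told apart.

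**Figure D1:**
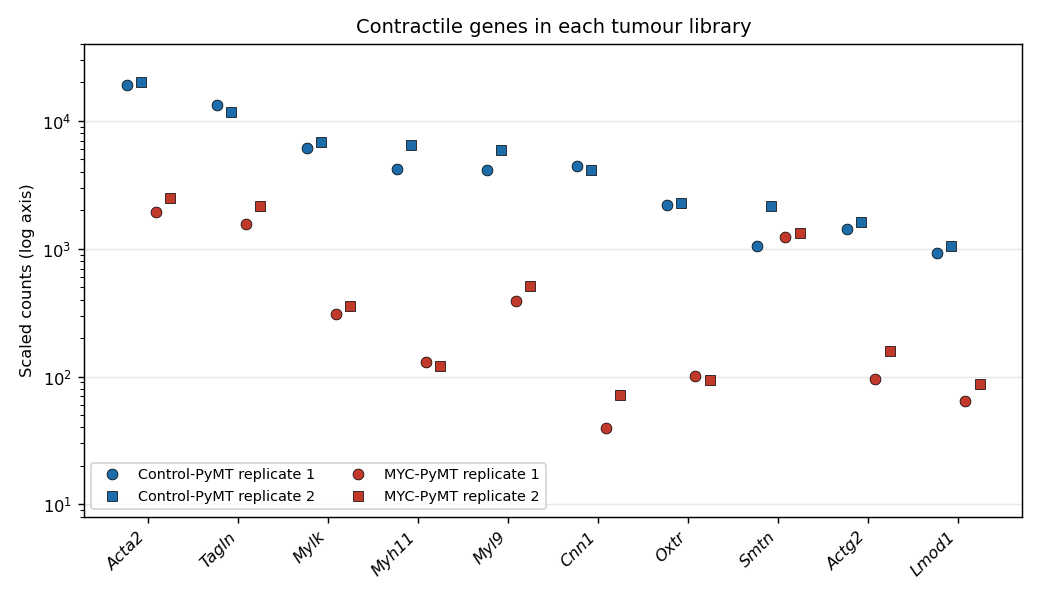
Scaled counts (log axis) of each contractile gene in the 4 libraries, with genes ordered by their Control-PyMT mean; circles are replicate 1 and squares replicate 2, blue for Control-PyMT and red for MYC-PyMT. The red points lie below the blue points for 9 genes, and for Smtn the MYC-PyMT values of 1238 and 1326 lie between the Control-PyMT values of 1058 and 2172.

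The actins carry the force. Acta2 encodes smooth muscle alpha actin, the usual stain for myoepithelium, and lies on chromosome 19 from 34241090 to 34255590 (GRCm38, GENCODE M21). It had 19203 and 20245 scaled counts in the controls, against 1954 and 2502 in MYC-PyMT. Both MYC-PyMT libraries were thus far below both controls, at 11.3% of the Control-PyMT mean. This is a log2 change of -3.16 with an SE of 0.19 (limma adjusted p = 5.94e-06). Actg2, the gamma actin of visceral smooth muscle (chromosome 6, 83512905 to 83536265), had 1435 and 1626 in the controls, against 95.6 and 157 in MYC-PyMT. It retained 8.26% of the Control-PyMT mean, and its log2 change was -3.63 (SE 0.28, adjusted p = 1.51e-05). Although Acta2 was the more abundant of the pair, the fitted changes of both actins had overlapping 95% intervals, -3.59 to -2.72 for Acta2 and -4.24 to -3.01 for Actg2.

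The motor and its switch fell as well. Myh11, the smooth muscle myosin heavy chain (chromosome 16, 14194535 to 14291372), had 4221 and 6509.5 scaled counts in the controls, against 129.8 and 121 in MYC-PyMT. The controls differed from each other 1.54-fold, which is small beside the 42.8-fold lower mean of MYC-PyMT (log2 -5.38, SE 0.24, limma adjusted p = 1.69e-06). Myl9, the regulatory light chain that is phosphorylated to start contraction (chromosome 2, 156775420 to 156781658), had 4121 and 5929 in the controls, against 390.5 and 513 in MYC-PyMT. Its MYC-PyMT mean was 8.99% of the Control-PyMT mean (log2 -3.46, SE 0.24, adjusted p = 9.33e-06). Mylk, the myosin light chain kinase (chromosome 16, 34745210 to 35002420), had 6118 and 6851 in the controls, against 306 and 358 in MYC-PyMT. That is 5.12% of the control mean (log2 -4.29, SE 0.19, adjusted p = 1.69e-06). The gene also gives rise to telokin, a short protein from its 3' part, and values per gene do not separate the products.

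Among the proteins that bind thin filaments, Cnn1 fell most. Cnn1 encodes calponin 1, which damps the actin-activated ATPase of myosin (chromosome 9, 22099216 to 22109630). It had 4469 and 4167 scaled counts in the controls, against 39.2 and 71.4 in MYC-PyMT, where 39 and 65 reads stand behind the values. The MYC-PyMT libraries differed 1.82-fold from each other and held 1.28% of the Control-PyMT mean. The log2 change of Cnn1 was -6.32 (SE 0.29, limma adjusted p = 1.69e-06), rank 42 from the most negative of the 16725 tested genes. Tagln, transgelin or SM22 alpha, is an actin crosslinker on chromosome 9 (45929619 to 45936058). It had 13220.0 and 11773 in the controls, against 1569 and 2142 in MYC-PyMT. At 14.8% of control it kept the largest share among the 9 genes that fell (log2 -2.77, SE 0.21, adjusted p = 1.41e-05, rank 781). Lmod1, leiomodin 1, nucleates actin filaments in smooth muscle (chromosome 1, 135324807 to 135368065). Its values were 928 and 1048 in the controls, against 64.4 and 86.8 in MYC-PyMT (log2 -3.70, SE 0.26, adjusted p = 1.15e-05). The 95% intervals of the Cnn1 change (-6.97 to -5.67) and the Tagln change (-3.23 to -2.31) did not overlap, although both proteins carry a calponin homology domain.

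Smtn, smoothelin, binds actin filaments of contractile smooth muscle (chromosome 11, 3517523 to 3540612). It had 1058 and 2172 scaled counts in the controls, against 1238 and 1326 in MYC-PyMT. Both MYC-PyMT values thus lay between the controls, which differed 2.05-fold. The log2 change of -0.24 did not pass (SE 0.30, 95% interval -0.91 to 0.43, limma adjusted p = 0.529). Its direction rested on which control was used: it was -0.76 without Control-PyMT replicate 1 (adjusted p = 0.0342) and 0.28 without Control-PyMT replicate 2 (adjusted p = 0.244). The interval lies above those of the other 9 genes, so a fall of Smtn as large as theirs is outside it.

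Oxtr, the oxytocin receptor, stands at the top of the pathway and was not part of the filament system itself (chromosome 6, 112473683 to 112489943). It had 2185 and 2299 scaled counts in the controls, against 102 and 94.5 in MYC-PyMT. Replicates lay close together in each group, and the MYC-PyMT mean was 22.9-fold lower (log2 -4.50, SE 0.22, limma adjusted p = 2.06e-06). Under every alternative tried, the log2 change of Oxtr stayed between -4.62 and -4.44, and the 9 genes that fell kept their calls. Oxt, the gene of the hormone, was not analysed here.

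**Figure D2:**
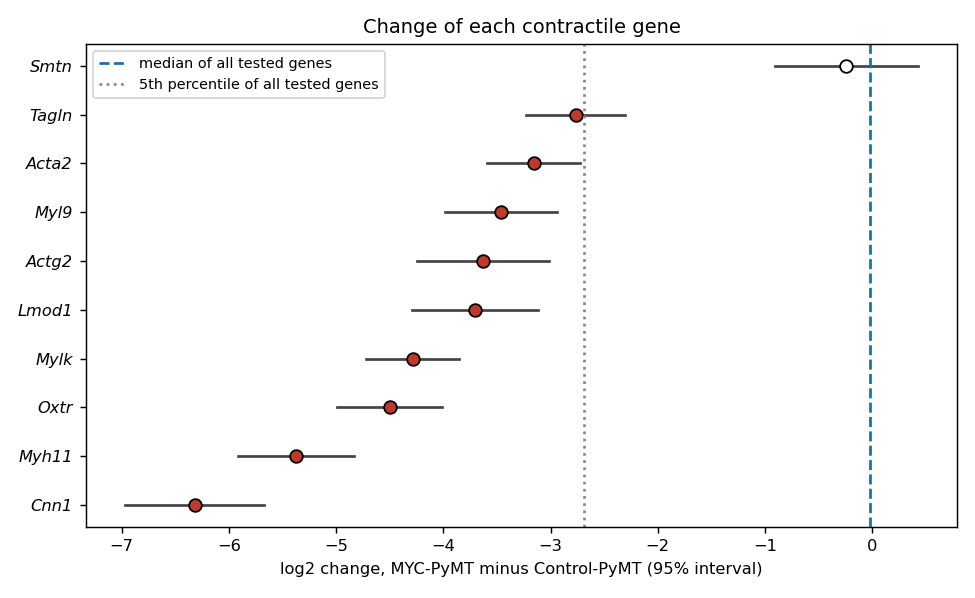
Log2 change (MYC-PyMT minus Control-PyMT) of each contractile gene with its 95% interval from limma; filled points passed the test, and vertical lines mark the median and the 5th percentile of all tested genes. The 9 genes that passed run from -6.32 for Cnn1 to -2.77 for Tagln, and Smtn, at -0.24, has the only interval that includes 0 (-0.91 to 0.43).

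The contractile genes also changed places relative to each other. Per kilobase of exon, Control-PyMT tumours had Acta2 first at 8982 scaled counts per kb, followed by Tagln at 6286, Myl9 at 4325, Cnn1 at 1578, Actg2 at 983, Myh11 at 706, Mylk at 576, Oxtr at 468, Smtn at 369 and Lmod1 at 250.2. The ranges of the controls overlapped for Myh11 and Mylk, for Oxtr and Smtn, and for Smtn and Lmod1. Within each control library Myh11 was above Mylk and Smtn above Lmod1, while Oxtr and Smtn changed order between the controls. In MYC-PyMT the per-kilobase order was Acta2 at 1015, Tagln at 933, Myl9 at 389, Smtn at 293, Actg2 at 81.2, Mylk at 29.5, Oxtr at 20.5, Cnn1 at 20.2, Lmod1 at 19.2 and Myh11 at 16.5. Acta2 and Tagln overlapped there, although Acta2 was above Tagln in each library. Each neighbouring pair from Oxtr to Myh11 overlapped too and changed order between the libraries. Cnn1 thus went from the fourth place to among the lowest, and Smtn from among the lowest to the fourth.

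Replicates differed within both groups. Replicate 2 was above replicate 1 for 7 of the 9 genes that fell in MYC-PyMT, and likewise for 7 of the 9 in Control-PyMT. In MYC-PyMT the median ratio of replicate 2 to replicate 1 over the 9 was 1.31. The 2 exceptions in MYC-PyMT were Myh11 and Oxtr. Of all tested genes, 52.4% were higher in MYC-PyMT replicate 2 than in replicate 1. Markers of skeletal muscle, which belong to another contractile tissue, were also higher in MYC-PyMT replicate 2, with a sum over 12 markers of 4250 scaled counts against 2275 in replicate 1. In Control-PyMT that sum was 863 in replicate 1 and 2224 in replicate 2, and no skeletal muscle marker was at 0 in both libraries of a group. The skeletal muscle sum was thus no higher in Control-PyMT than in MYC-PyMT, but 2224 and 2275 lie close together. Mb alone gave 577 and 673 of the sums in the controls, against 1067 and 1043 in MYC-PyMT. Of the 12 markers 5 were higher in MYC-PyMT without overlap (beside 37% of all tested genes), and none was lower without overlap (beside 38.7%). Acta1 and Ckm were higher in Control-PyMT replicate 2 (404 and 177) than in MYC-PyMT replicate 1 (210 and 104). Leaving out either MYC-PyMT library left 9 contractile genes lower.

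Of the 10 genes, 7 were found in the table of RefSeq promoters (GRCm38.p6), each given from 250 bases before to 50 bases after a start of transcription. Promoters are shown for the most abundant member, for the member with an exact SRF site, for the receptor and for the member that did not fall. Capitals mark every match, on either strand, to the CArG box, to a CArG box with 1 middle letter changed to C or G, to CACGTG (the E-box that MYC-MAX dimers and other factors bind) and to CATTCC (the MCAT element bound by TEAD factors). The windows are chr19:34255324-34255623 on the minus strand for Acta2, chr2:156775214-156775513 on the plus strand for Myl9, chr6:112489776-112490075 on the minus strand for Oxtr and chr11:3539243-3539542 on the minus strand for Smtn.
Acta2: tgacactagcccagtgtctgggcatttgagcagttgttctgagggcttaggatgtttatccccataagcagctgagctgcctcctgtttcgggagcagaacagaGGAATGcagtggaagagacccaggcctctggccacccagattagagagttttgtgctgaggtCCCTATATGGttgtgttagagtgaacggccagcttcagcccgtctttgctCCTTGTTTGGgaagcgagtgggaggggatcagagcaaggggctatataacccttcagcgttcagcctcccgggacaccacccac
Myl9: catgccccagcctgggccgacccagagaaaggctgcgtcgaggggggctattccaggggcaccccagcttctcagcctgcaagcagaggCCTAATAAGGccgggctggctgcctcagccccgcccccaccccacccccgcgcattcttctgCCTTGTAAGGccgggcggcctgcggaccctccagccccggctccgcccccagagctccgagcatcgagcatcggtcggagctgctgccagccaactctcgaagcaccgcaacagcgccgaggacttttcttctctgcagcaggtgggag
Oxtr: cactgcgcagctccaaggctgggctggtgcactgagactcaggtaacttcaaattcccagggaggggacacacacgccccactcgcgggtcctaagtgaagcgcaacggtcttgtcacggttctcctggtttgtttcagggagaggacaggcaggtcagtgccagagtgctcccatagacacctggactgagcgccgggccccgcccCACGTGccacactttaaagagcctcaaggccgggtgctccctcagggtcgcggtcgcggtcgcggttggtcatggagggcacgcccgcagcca
Smtn: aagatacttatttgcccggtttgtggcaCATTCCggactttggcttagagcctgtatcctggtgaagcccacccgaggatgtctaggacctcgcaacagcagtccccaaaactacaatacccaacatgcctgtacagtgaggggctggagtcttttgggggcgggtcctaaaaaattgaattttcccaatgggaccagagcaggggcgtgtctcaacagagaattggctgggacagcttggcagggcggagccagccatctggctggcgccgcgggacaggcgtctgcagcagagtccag

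The CArG box is the element of A and T letters between C and G pairs that SRF binds. An exact one, CCTAATAAGG, starts 161 bases before the start of Myl9, and it was found in 1 of the 7 contractile promoters and in 1.63% of all 32851 promoters. The form with 1 changed letter was found in Acta2 (CCCTATATGG at 84 bases and CCTTGTTTGG at 34 bases before the start) and again in Myl9 (CCTTGTAAGG at 99 bases). That form is held by 8.5% of all promoters. CACGTG was found 43 bases before the start in Oxtr and in no other matched member, beside 7.15% of all promoters. CATTCC or its complement was found in Acta2, Mylk, Lmod1 and Smtn, beside 14.7% of all promoters. Smtn, the member that did not fall, and Mylk, which fell, thus had the same kind of match. The windows of both lie inside the annotated genes, that of Mylk at chr16:34784700-34784999 on the plus strand. For each gene 1 start was scanned, so other starts are not covered. A match describes the letters in this window and not the binding of a factor.

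Many contractile genes have relatives that build the cytoskeleton of most cells. The values of both are set side by side here, and differences between genes were not tested. Actb, cytoplasmic beta actin, had 46925 and 47561 scaled counts in the controls, against 45888 and 56195 in MYC-PyMT (log2 0.10, limma adjusted p = 0.726). Actg1, cytoplasmic gamma actin, had a log2 change of 0.22 (adjusted p = 0.363). The non-muscle heavy chain Myh10 fell from 1055 ± 115 to 177 ± 19.9 (SD, n = 2 per group, limma adjusted p = 3.69e-05), a log2 change of -2.57 beside -5.38 for Myh11. Myh9, the other common non-muscle heavy chain, fell by 0.85 on the log2 scale, a call lost if Control-PyMT replicate 2 was left out (adjusted p = 0.0714), if the variance prior was constant (0.0748) or if the exon length trend was removed (0.124). Among light chains, Myl12b fell (log2 -0.98, adjusted p = 0.00174), and Myl12a at -0.33 did not pass (adjusted p = 0.189).

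The relatives of Cnn1, whose log2 change was -6.32, fell too. Cnn2 fell from 3175 ± 26.5 to 821 ± 276 scaled counts and Cnn3 from 9413 ± 732 to 2220 ± 532 (SD, n = 2 per group, limma adjusted p = 1.68e-04 and 6.13e-05). Their log2 changes were -1.99 and -2.10. Tagln2, the transgelin of non-muscle cells, rose, with 8438 and 7749 scaled counts in the controls, against 18371 and 21679 in MYC-PyMT (log2 1.30, SE 0.19, adjusted p = 4.99e-04). Tagln had more scaled counts than Tagln2 in both controls and fewer in both MYC-PyMT libraries. Smtnl2, a smoothelin-like gene, rose from 175 ± 27.1 to 378 ± 96.3 (log2 1.09, adjusted p = 0.0102), which did not hold without either control or without MYC-PyMT replicate 2 (adjusted p = 0.0615 to 0.107). Lmod2, the leiomodin of striated muscle, had 0 and 4.25 scaled counts in the controls, against 29.2 and 35.2 in MYC-PyMT, or at most 32 reads in a library.

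**Figure D3:**
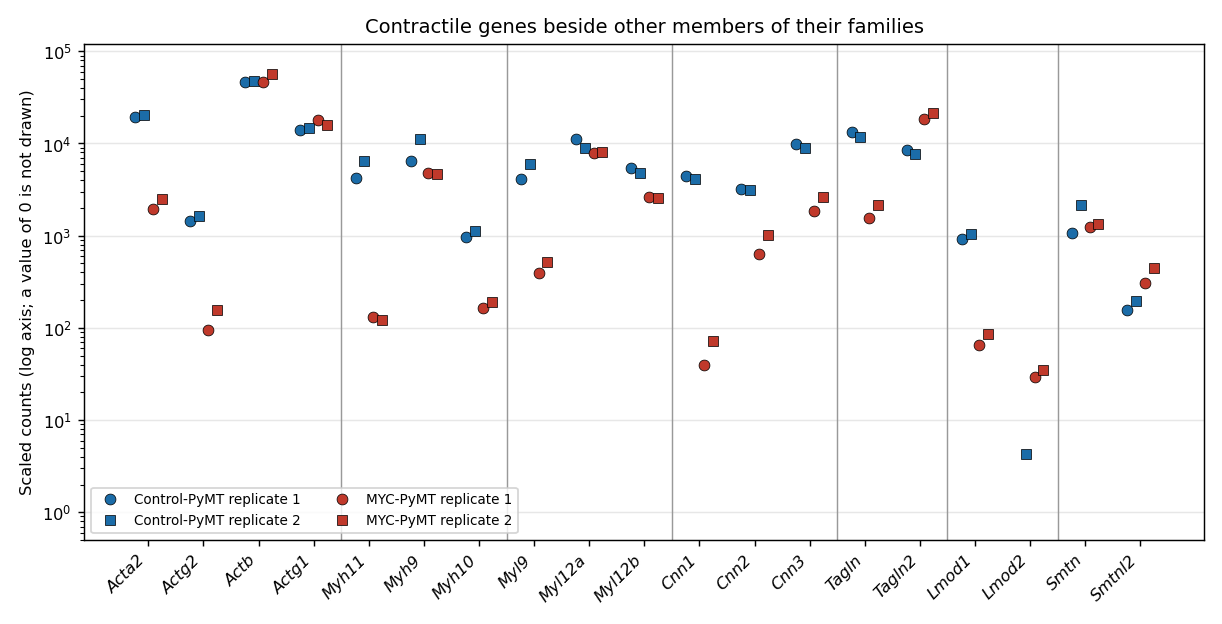
Scaled counts (log axis) of the contractile genes and of other members of their families in the 4 libraries, with vertical lines between families; a value of 0 (Lmod2 in Control-PyMT replicate 1) is not drawn. The log2 changes of Cnn2 and Cnn3, -1.99 and -2.10, lie nearer 0 than that of Cnn1, -6.32, and Tagln2 is higher in MYC-PyMT while Tagln is lower.

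Of the wider set of actins, myosins and thin filament proteins, 17 of 32 tested genes fell (53.1%, beside 24.6% of all tested genes). In the same set 3 rose (9.38%, beside 23.3%), and the median log2 change was -0.77. Leaving out Control-PyMT replicate 2 left 10 lower, and leaving out MYC-PyMT replicate 1 left 5 higher. Flna, filamin A, which crosslinks actin, fell from 21747 ± 650.3 to 6790 ± 652 (limma adjusted p = 1.08e-04). Tpm2, beta tropomyosin, which lies along the thin filament, fell by 2.22 on the log2 scale (adjusted p = 2.17e-04). Actc1 was not analysed here.

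Regulators of the transcription of contractile genes follow. Srf had a log2 change of -0.04 (SE 0.22, 95% interval -0.54 to 0.46, limma adjusted p = 0.905). The SRF partners Mkl1 and Mkl2 had changes of 0.10 and 0.06 (adjusted p = 0.809 and 0.820). Myocd, myocardin, the partner restricted to muscle, was below the level filter with 22 reads over both controls and 1 over both MYC-PyMT libraries. Its level was 18.6-fold lower. The 95% counting interval of 3.01 to 769 pools the reads of each group and leaves out variation between libraries. Of 18 tested regulators 7 fell (38.9%, beside 24.6% of all tested genes) and none rose (beside 23.3%), with a median log2 change of -0.44. The number that fell was 3 without Control-PyMT replicate 2, 4 without MYC-PyMT replicate 1 and 2 without the variance trend. Tgfbr2, the type II receptor of TGF-beta, a growth factor that induces Acta2, fell from 7145 ± 1375 to 1462 ± 74.8 (log2 -2.28, adjusted p = 3.03e-05). Wwtr1, the TEAD partner TAZ, fell by 0.95 on the log2 scale (adjusted p = 0.00212). Tgfbr1 fell by 0.78 (adjusted p = 0.0129), a call lost without Control-PyMT replicate 1 (0.0851), without MYC-PyMT replicate 1 (0.0978) and without the variance trend (0.0578).

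Between the receptor and the filament lie the genes of oxytocin and calcium signalling. Of 22 tested, 14 fell (63.6%, beside 24.6% of all tested genes) and 1 rose (4.55%, beside 23.3%), with a median log2 change of -1.12. Itpr1, a receptor that releases calcium from stores, fell from 2538 ± 237 to 499 ± 57.4 (limma adjusted p = 2.76e-05). Plcb4, a phospholipase C, had a log2 change of -1.90, and Kcnmb1, a subunit of the calcium-activated potassium channel of smooth muscle, one of -3.82 (adjusted p = 2.38e-04 and 6.62e-05). Gnaq, the G protein that couples Oxtr to phospholipase C, fell by 0.71 (adjusted p = 0.00855), a call lost without either MYC-PyMT library (0.0525 and 0.0889). Atp2a2, the calcium pump of the endoplasmic reticulum, was the gene that rose (log2 0.50, adjusted p = 0.0494), and leaving out any library ended its call (0.0925 to 0.389), as did 5 other settings (0.0524 to 0.112).

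Regulators of light chain phosphorylation, which act on Myl9, fell in 8 of 21 tested cases (38.1%, beside 24.6% of all tested genes). They rose in 1 case (4.76%, beside 23.3%), and the median log2 change was -0.43. Rhoc, a small GTPase, fell from 9263 ± 321 to 1629 ± 216 (limma adjusted p = 1.36e-05). Prkg1, the cGMP-dependent kinase that relaxes smooth muscle, had a log2 change of -3.38, and Cdc42bpa, a kinase that binds CDC42, one of -1.12 (adjusted p = 1.45e-04 and 0.00101). Ppp1r14b, an inhibitor of protein phosphatase 1, rose from 1225 ± 9.20 to 4520 ± 720.1 (adjusted p = 6.85e-05). The single gene that rose among these regulators became 3 without Control-PyMT replicate 2 and 2 without MYC-PyMT replicate 1. Mylk3 and Ryr2 were not analysed here.

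Of 15 markers of basal and myoepithelial cells 9 fell (60%, beside 24.6% of all tested genes) and 1 rose (6.67%, beside 23.3%). The median log2 change was -1.11. Mme, the surface peptidase CD10 of myoepithelium, fell from 5065 and 3675 scaled counts to 79.5 and 72.5 (log2 -5.81, limma adjusted p = 1.54e-06). Trp63, the transcription factor p63 of basal cells, fell from 1988 and 1790 to 195 and 414 (log2 -2.72, adjusted p = 1.38e-04), and Id4 fell by 4.09 on the log2 scale (adjusted p = 1.22e-04). Lama3, a chain of a basement membrane laminin, was lower as well, with a log2 change of -2.97 (adjusted p = 3.92e-05).

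The basal keratins were not lower. Krt5 had 3240.5 and 2299 scaled counts in the controls, against 2843 and 5442 in MYC-PyMT (log2 0.53, SE 0.30, limma adjusted p = 0.169), and it passed as higher without MYC-PyMT replicate 1 (adjusted p = 0.00763). Krt14 had 4673 and 2481 in the controls, against 4828 and 13476 in MYC-PyMT, a rise of 1.24 on the log2 scale that passed (adjusted p = 0.0369). The call was lost without either control (adjusted p = 0.129 and 0.409), without MYC-PyMT replicate 2 (0.226), with DESeq2 (0.168), without the variance trend (0.132), under TMM or upper-quartile scaling (0.0615 and 0.0638) and after removal of the length trend (0.0639). MYC-PyMT replicate 2 was the highest of the 4 libraries for both keratins.

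Markers of vascular smooth muscle fell in 10 of 14 cases (71.4%, beside 24.6% of all tested genes) and rose in 2 (14.3%, beside 23.3%). Their median log2 change was -1.38, beside -3.67 for the contractile genes. Synm, the filament protein synemin, fell from 458 and 523 scaled counts to 53.3 and 59.3 (log2 -3.10, limma adjusted p = 3.29e-05), and Rbpms, an RNA-binding protein, fell by 1.47 (adjusted p = 6.17e-04). Des, desmin, rose from 46.8 and 147.8 to 163 and 437 (log2 1.67, adjusted p = 0.0331), and Mustn1 rose by 1.35 (adjusted p = 0.0152). Skeletal muscle makes both as well, and both calls were lost without either control or without MYC-PyMT replicate 2 (adjusted p = 0.0597 to 0.375). The Des call was also lost with edgeR (0.0650), without the variance trend (0.105), and under TMM (0.0618) or upper-quartile scaling (0.0570). Des also stands in the list of skeletal muscle markers and is part of the sums given above, and the part of skeletal muscle in its rise was not tested. Acta1, skeletal muscle actin, had 31.8 and 404 in the controls, against 210.3 and 551 in MYC-PyMT (log2 1.57, adjusted p = 0.184). Of 12 skeletal muscle markers 5 rose (41.7%, beside 23.3% of all tested genes), Des being 1 of them, together with Mb, Mylpf and Myh4 (log2 0.76, 1.48 and 3.09). None fell, beside 24.6% of all tested genes. Fewer rose without Control-PyMT replicate 1 or without MYC-PyMT replicate 2, and more without MYC-PyMT replicate 1. With the replicate number as a block 10 rose. Only 1 rose without the variance trend, 2 with edgeR and 4 with DESeq2. Under TMM or upper-quartile scaling, or after removal of the length trend, 3 rose.

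Pericytes wrap capillaries and share some contractile genes with smooth muscle, and their markers did not fall as a group. Of 11 pericyte markers 2 rose (18.2%, beside 23.3% of all tested genes) and 1 fell (9.09%, beside 24.6%), with a median log2 change of 0.29. Rgs5 had 2296 and 2103 scaled counts in the controls, against 3100 and 4230 in MYC-PyMT (log2 0.72, limma adjusted p = 0.0160), and Pdgfrb rose by 0.77 (adjusted p = 0.0482). Neither rise held without Control-PyMT replicate 1 (adjusted p = 0.0782 and 0.229) or without MYC-PyMT replicate 2 (0.234 and 0.156). The Rgs5 call was also lost without Control-PyMT replicate 2 (0.114) and without the variance trend (0.0638). The Pdgfrb call was also lost without MYC-PyMT replicate 1 (0.0528), with edgeR (0.101), without the level filter (0.0543), without the variance trend (0.104), and under TMM (0.0785) or upper-quartile scaling (0.0954). Both had positive changes under every alternative. Steap4, a metalloreductase, fell by 3.57 on the log2 scale (adjusted p = 4.23e-06). Of 10 endothelial markers 5 rose (50%, beside 23.3% of all tested genes), Cldn5, Cdh5 and Tie1 among them (log2 1.59, 1.02 and 1.09). None fell, beside 24.6% of all tested genes, and the median log2 change was 0.79. Fewer rose without either control or without MYC-PyMT replicate 2, the fewest without Control-PyMT replicate 1. There Cldn5, Cdh5 and Tie1 had log2 changes of 1.48, 0.64 and 0.75 and lost their calls. Without the variance trend 3 endothelial markers rose. Fibroblast markers fell in 2 of 12 cases (16.7%, beside 24.6% of all tested genes) and rose in 1 (8.33%, beside 23.3%). Their median log2 change was -0.18, and fewer fell without Control-PyMT replicate 2. The falls were those of Dcn and Pdgfra (log2 -2.22 and -1.31). Col1a1, the rise, had 0.0495 as its adjusted p and 0.270 without Control-PyMT replicate 1, and its call was also lost with edgeR (0.164), DESeq2 (0.373) and 5 other settings (0.0543 to 0.156). Summed fibroblast markers were 23638 and 34014 in the controls, against 23429 and 34291 in MYC-PyMT, so these sums overlapped between groups, while those of the contractile genes did not. The most abundant markers weigh most in such a sum. Col3a1 alone gave 5597 and 9989 in the controls, against 7396 and 9974 in MYC-PyMT. Dcn fell within it, from 5172 and 4516 to 925 and 1169, while Col1a1 rose. The sum thus does not stand for each marker. Luminal markers, for comparison, fell in 6 of 12 cases (50%, beside 24.6% of all tested genes) and none rose, with a median log2 change of -0.47. Among those that fell were the hormone receptor genes Pgr and Esr1 and the transcription factor Foxa1 (log2 -7.88, -2.79 and -5.09).

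**Figure D4:**
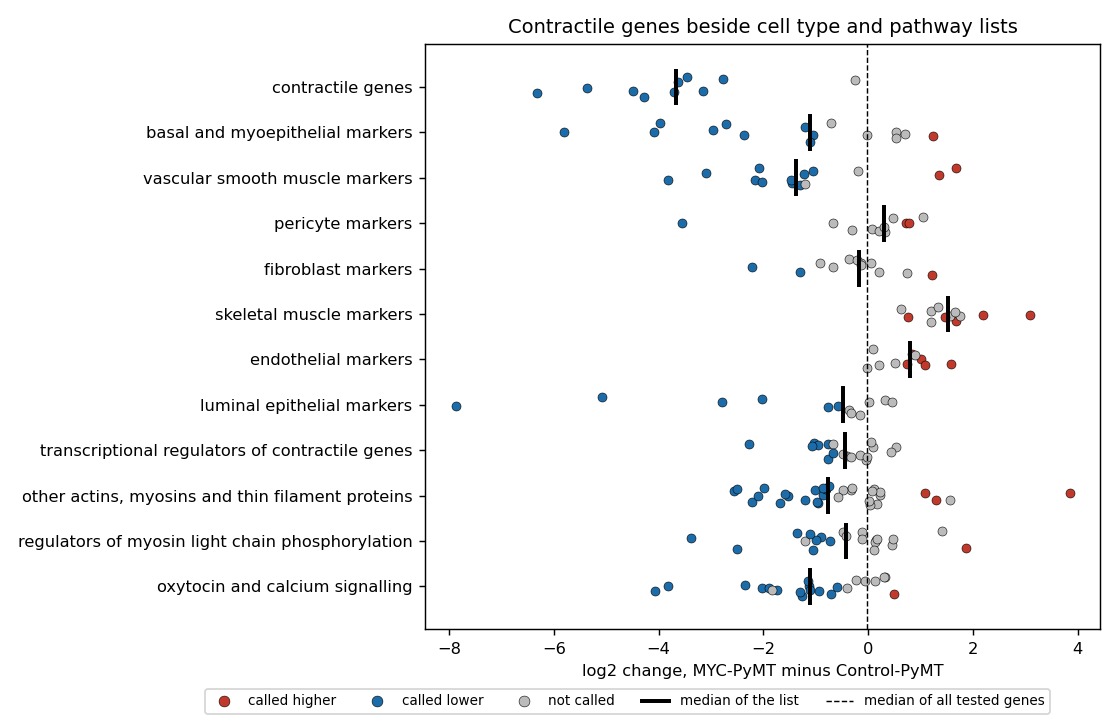
Log2 change (MYC-PyMT minus Control-PyMT) of each tested gene of the contractile set and of 11 cell type and pathway lists; each point is a gene, coloured by its limma call, and thick bars are list medians. The contractile median of -3.67 is the leftmost, followed by vascular smooth muscle markers at -1.38, and pericyte, skeletal muscle and endothelial medians lie above 0.

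Outside these lists, the genes whose pattern over the 4 libraries was nearest to that of Acta2 were sought among 13294 genes with a mean of at least 50 scaled counts. By Euclidean distance of centred log2 values these were Trim12a at 0.105, Gm15675 at 0.107, Psd3 at 0.126, Reep1 at 0.153 and Gbp9 at 0.161. Psd3, for example, had 2204 and 2284 scaled counts in the controls, against 226 and 259 in MYC-PyMT. The log2 changes of these 5 genes ran from -3.24 for Gm15675 to -3.06 for Gbp9, beside -3.16 for Acta2. With 4 libraries in 2 groups, a small distance mainly reflects a like difference between the groups. Whether these genes vary together with Acta2 beyond that was not tested.

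Reads of some members could be shared with overlapping genes, because nothing used here states whether counting respected strand. The annotated exons of Tagln overlap those of Pcsk7 on the opposite strand. Pcsk7 had 2711 and 2809 scaled counts in the controls, against 1842 and 1469 in MYC-PyMT. Pcsk7 was thus well under Tagln in the controls, but in MYC-PyMT it was above Tagln in replicate 1 (1842 against 1569) and below it in replicate 2 (1469 against 2142). Smtn overlaps 2 opposite-strand transcripts, of which Gm11946 had at most 20.4 scaled counts in any library. Mylk overlaps opposite-strand transcripts that were not analysed here. Close relatives shared little sequence with these genes: of the 50-base words in the longest coding transcript, 0.35% of those of Acta2 and 0.40% of those of Myh11 occurred in another gene, and none of those of Actg2, Cnn1, Oxtr, Myl9 or Lmod1. For Smtn the share was 13.2%, all with Gm11946, and for Mylk 4.28%. For Tagln it was 48.3%, mostly with the opposite-strand transcript Gm48529, so its reads are uncertain if strand was not used.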

How the data were processed

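Poly(A)-selected TruSeq Stranded libraries from 4 tumour samples were analysed, 2 of each genotype. Per the submitters' processing notes, the tools were HISAT2 and DESeq2 and the genome mm10 (GRCm38.p5). No source used here names the counter or its strand setting. The deposited values are scaled counts, that is, a signal made of reads divided by a size factor per library, with no correction for gene length. In each column 100% of values were whole multiples of 1 read within 0.001 reads, so reads were recovered for the count tests. For MYC-PyMT replicate 1 an automatic test could not judge this, since 1 read is worth 1.01 there.

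The test was limma 3.58.1 (R 4.3.3; lmFit, eBayes with a variance trend) on log2(scaled count + 1), two-sided, with Benjamini-Hochberg adjustment over the 16725 genes that reached 10 in 2 or more libraries. All 10 members passed that filter. Such fold changes understate changes of low genes. With 2 libraries a group the smallest exact permutation p is 0.33, so no such test was used. The interval for Myocd pools the reads of each group, takes each read as independent and leaves out variation between libraries. PCR copies are not separate molecules, so it may be too narrow even for counting error. Exon lengths and coordinates came from GENCODE M21, where 20463 gene IDs were found. Mrtfa and Mrtfb were matched as Mkl1 and Mkl2, and of 2 rows named Myh14 the one found in GENCODE was used.

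The members and lists were chosen with earlier results of these data known. Named genes were the members, a fixed set of defining genes, and at most 3 genes of each list per direction with the smallest p; Actb, Actg1, Myh9, Myl12a, Myl12b, Cnn2, Tpm2, Mkl1, Mkl2, Krt8, Id4, Gnaq and Pcsk7 were added after their values were seen. Des, Acta1, Kcnmb1 and Ppp1r14a stand in 2 lists each. The fit was tested on simulated data. The other settings tried were: 0.5 or 5 added before the log; a minimum of 50, or none; scaling by TMM or by the upper quartile; limma with a constant variance prior; replicate number as block; 1 library left out at a time; a threshold of 0.1; and, on recovered reads, edgeR 4.0.16 (quasi-likelihood) and DESeq2 1.42.0. Removal of the trend with exon length in each library was chosen after seeing the data.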

Additional observations from a re-analysis of the deposited data

How the results depend on the processing

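The 9 contractile genes that fell passed the test with the same sign under all 16 alternatives. The threshold of 0.1, counted among the 16, reuses the main fit and could not end these calls. Without Control-PyMT replicate 1 the log2 change of Smtn was -0.76. Over all genes, leaving out 1 library gave between 2573 (without Control-PyMT replicate 2) and 3433 lower genes, in place of 4118, with 2703 without Control-PyMT replicate 1. Where an arm held 1 library, it was assumed to vary like the other group. Of the 175 tested genes in the context lists 73 fell (41.7%, beside 24.6% of all tested genes) and 20 rose (11.4%, beside 23.3%). Leaving out 1 library gave 3 (without Control-PyMT replicate 1) to 29 that rose, 8 of them without MYC-PyMT replicate 2. Without the variance trend 9 rose and with upper-quartile scaling 13. The cause was not tested. Upper-quartile scaling also put the median log2 change of all genes at -0.13 in place of -0.02, and changes under it are read relative to that. EdgeR and DESeq2 on recovered reads each called 9 contractile genes lower. With the replicate number as a block, 9 contractile genes and 4152 of all genes were lower and 3887 higher. Deviations from the group means correlated at -0.0886 between same-numbered libraries across genes. With 1 replicate difference per group, this cannot tell whether same-numbered libraries were paired, and the labels do not say. The main test did not pair them. The lowest number of reads behind a contractile value was 39.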
